A study of Mus musculus with 8 samples.

Results

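Oxidative phosphorylation is run by 5 protein complexes of the inner mitochondrial membrane, and the transcripts of their nuclear subunits were measured in mouse thymocytes. Members were taken by gene symbol, as every symbol of the Nduf, Sdh, Uqcr, Cox4 to Cox8 and Atp5 series, which gave 85 of the 23420 symbols in the count files. By complex these are 36 members of complex I, 4 of complex II, 8 of complex III, 20 of complex IV and 17 of complex V. Ndufa4 and Ndufa4l2 are counted in complex IV, to which Ndufa4 has been reassigned, and Atp5s and Atp5sl carry an Atp5 symbol without being subunits of the enzyme.

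RNA was sequenced from wild-type mice of 2 strains named B6 and BALB in the library titles, with no substrain, age or sex given. From each strain there were 2 libraries of sorted DP thymocytes (CD4+ CD8+ CD69-negative cells with low to intermediate H57 staining, H57 being an antibody against T cell receptor beta) and 2 of whole thymocytes, 8 libraries in 4 groups. No label says that replicate libraries were taken from different animals, so p-values measure the spread between these libraries. That spread may be technical, except in BALB whole thymocytes, whose 2 libraries differed in Xist and Ddx3y counts (below). The labelled DP libraries carried the DP genes Rag1, Cd4 and Cd8a at 1249 CPM or more each, and the mature T cell gene S1pr1 at 0 to 0.175 CPM.

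Complex I takes electrons from NADH and complex II takes them from succinate, complex III passes them on to cytochrome c, complex IV hands them to oxygen, and complex V uses the proton gradient built by complexes I, III and IV to make ATP. All of these but complex II also contain subunits encoded by mitochondrial DNA, which were not analysed here. In the thymus, DP cells that have stopped dividing are small and metabolically quiet compared with the proliferating precursors they come from.

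Depth and composition bear on every value. Libraries held 2632083 to 5974684 counts in genes, and the members took 0.292% to 0.426% of them. Levels are given as CPM, the counts scaled to library size over the tested genes with a correction for composition, and a member was tested where it passed a filter on low counts fitted over all genes, which kept 11409 genes and 74 of the 85 members. A change is called where the Benjamini-Hochberg adjusted p over all tested genes was under 0.05. One library stood apart, BALB DP replicate 1, the deepest one, in which the ribosomal RNA precursor Rn45s took 3.14% of gene counts, beside 5.11% to 8.35% elsewhere. BALB whole thymocyte replicate 1 had 12313 counts of Xist and 0 of the Y-linked Ddx3y, and replicate 2 had 203 and 725. The other libraries had 6 to 24 counts of Xist and 444 to 1177 of Ddx3y. The 2 BALB whole libraries were therefore not repeats of 1 sample. Medians over members are also given with BALB DP replicate 1 and BALB whole replicate 1 left out.

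Expressed per kilobase of transcript, which allows genes to be compared, member levels spanned a wide range. The highest in complex V was Atp5b, the catalytic beta subunit, with a mean of 225 CPM per kilobase over the 8 libraries, and the highest in complex III was Uqcrh, the hinge protein beside cytochrome c1, with 208 CPM per kilobase. Ndufa6, an accessory subunit, led complex I with 137 CPM per kilobase, Cox4i1 led complex IV with 125 CPM per kilobase, and the flavoprotein Sdha led complex II with 74.3 CPM per kilobase. The lowest tested members were Atp5g1 in complex V with 1.15 CPM per kilobase, Ndufab1 in complex I with 1.83, Cox7c in complex IV with 4.93, the membrane anchor Sdhc in complex II with 17.4 and Uqcrb in complex III with 24.8. These ranks rest on the length taken, the median over a gene's transcripts. In plain counts, Atp5l of complex V ran from 5 to 16 a library and Atp5g1 from 7 to 21. Over the libraries, Ndufab1, the acyl carrier protein, ran from 3.49 to 5.78 CPM, Sdhc from 28.3 to 39.1 CPM, Uqcrb from 9.14 to 21.7 CPM and Cox7c from 0.999 to 4.71 CPM. The medians of the complexes were close together, at 35.9 (I), 33.2 (II), 37.7 (III), 55.0 (IV) and 50.9 (V) CPM per kilobase.

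**Figure D1:**
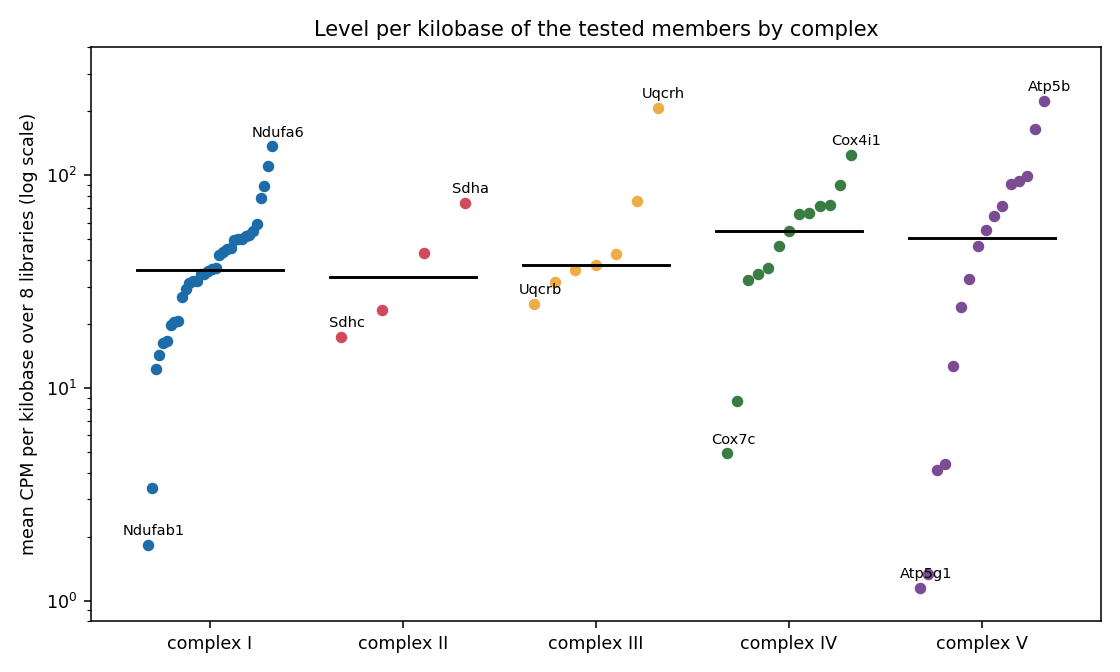
Mean level of each of the 74 tested members over 8 libraries, in CPM per kilobase of transcript on a log scale, by complex. Each point is a member, black bars are the medians of the complexes, and the highest and lowest member of each complex is named; Atp5b stands highest at 225 and Atp5g1 lowest at 1.15.

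Among these leaders Atp5b had 415 and 375 CPM in B6 DP, 393 and 441 in B6 whole, 469 and 448 in BALB DP and 443 and 462 in BALB whole thymocytes. Sdha had 234 and 217 CPM in B6 DP, 232 and 231 in B6 whole, 229 and 198 in BALB DP and 196 and 185 in BALB whole thymocytes. Cox4i1 had 95.1 and 93.5 CPM in B6 DP, 87.0 and 82.5 in B6 whole, 124 and 100 in BALB DP and 87.2 and 85.9 in BALB whole thymocytes. No library of Atp5b or Sdha stood far from the rest, and the highest of Cox4i1 was BALB DP replicate 1. Ndufa6 had 46.1 and 41.6 CPM in B6 DP, 35.995 and 43.1 in B6 whole and 36.7 and 46.2 in BALB whole thymocytes, but 121 and 47.8 in BALB DP. Uqcrh, called below, lay between 78.8 and 106 CPM in 7 libraries and at 147 in BALB DP replicate 1.

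At the low end stood some genes whose products are integral parts of the enzymes. Ndufs3 and Ndufs5 of complex I were listed at 0 in all 8 libraries, Uqcrc1, a core protein of complex III, had 1 count in all, and Atp5a1, the catalytic alpha subunit of complex V, had 1 count in all. A count of 0 here is therefore the value in the files and is not read as absence of the transcript. In the annotation, Uqcrc1 overlaps no other gene's exons and shares no 50-base stretch with another gene, whereas Ndufs5 shares 21.7% of its 50-base stretches and Ndufs3 17.9%, and Atp5a1 overlaps Haus1 over 4.11% of its exons. The other 7 untested members had few counts or none: Cox7a1 had 40 counts over the 8 libraries, Cox4i2 had 20, Cox6a2 had 12, Cox8b had 6, Ndufa4l2 had 5, and Cox7b2 and Cox8c had 0. With 0 counts the level of each library is below 3 counts, which is 0.502 CPM in the deepest and 1.14 CPM in the shallowest library, counting error only.

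Where a subunit has isoforms, 1 form usually carried nearly all the signal, read as mean CPM per kilobase. Cox4i1 had 125 CPM per kilobase and the hypoxia-linked form Cox4i2 had 0.949, and their library values were 82.5 to 124 CPM and 0 to 1.88 CPM. Cox6a1 had 71.6 CPM per kilobase (34.3 to 58.7 CPM) and the heart and muscle form Cox6a2 had 0.546 (0 to 0.726 CPM). Cox6b1 had 66.8 CPM per kilobase (24.8 to 38.7 CPM) and its testis form Cox6b2 had 8.72 (2.42 to 5.08 CPM). Each of these pairs kept its order in every library. In the Cox7a set the levels were 34.4 CPM per kilobase for Cox7a2 (12.9 to 31.7 CPM), 2.85 for the heart and muscle form Cox7a1 (0.725 to 2.25 CPM) and 32.2 for Cox7a2l (27.0 to 41.1 CPM), which links complexes III and IV. Cox8a had 90.6 CPM per kilobase (37.02 to 82.5 CPM), Cox8b had 0.563 (0 to 0.499 CPM) and Cox8c was listed at 0. Ndufa4 had 55.0 CPM per kilobase (16.7 to 36.1 CPM) and Ndufa4l2 had 0.172 (0 to 0.483 CPM). The 3 genes for the rotor's c subunit make the same mature protein, and among them Atp5g3 had 71.7 CPM per kilobase (38.9 to 60.8 CPM), Atp5g2 had 4.37 (0.628 to 5.78 CPM) and Atp5g1 had 1.15 (1.997 to 4.75 CPM). Atp5g2 shares 38.4% of its 50-base stretches with other genes, processed copies among them. Uqcrb shares 25.5%, Cox7c 22.1% and Atp5g1 11.1%, so the counts of these 4 are uncertain. Of the 74 tested members, 17 share more than 10% of their 50-base stretches with another gene and 27 share none. Exons of 18 overlap those of another gene listed in the count files. Overlaps with genes not listed there are outside this number, such as that of Ndufb6 over 39.0% of its exons. The kit kept no strand, so reads from overlapping genes on opposite strands cannot be told apart.

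Summed over the 85 members, the level was 3097 and 3041 CPM in the 2 B6 DP libraries, 3127 and 3282 in B6 whole, 3348 and 3210 in BALB whole thymocytes, and 4460 and 3450 in BALB DP replicates 1 and 2. BALB DP replicate 1 was thus 1.45 times the B6 DP mean and replicate 2 was 1.12 times. The excess was uneven over the complexes. In replicate 1 the sum was 1.78 times the B6 DP mean for complex IV, 1.54 for III, 1.45 for I, 1.42 for V and 1.09 for II. In replicate 2 it was 1.21 times for V, 1.17 for III, 1.15 for IV, 1.09 for I and 0.965 for II. Complex II was the one complex in which replicate 2 did not exceed both B6 DP libraries, with 316 CPM against 337 and 319.

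**Figure D2:**
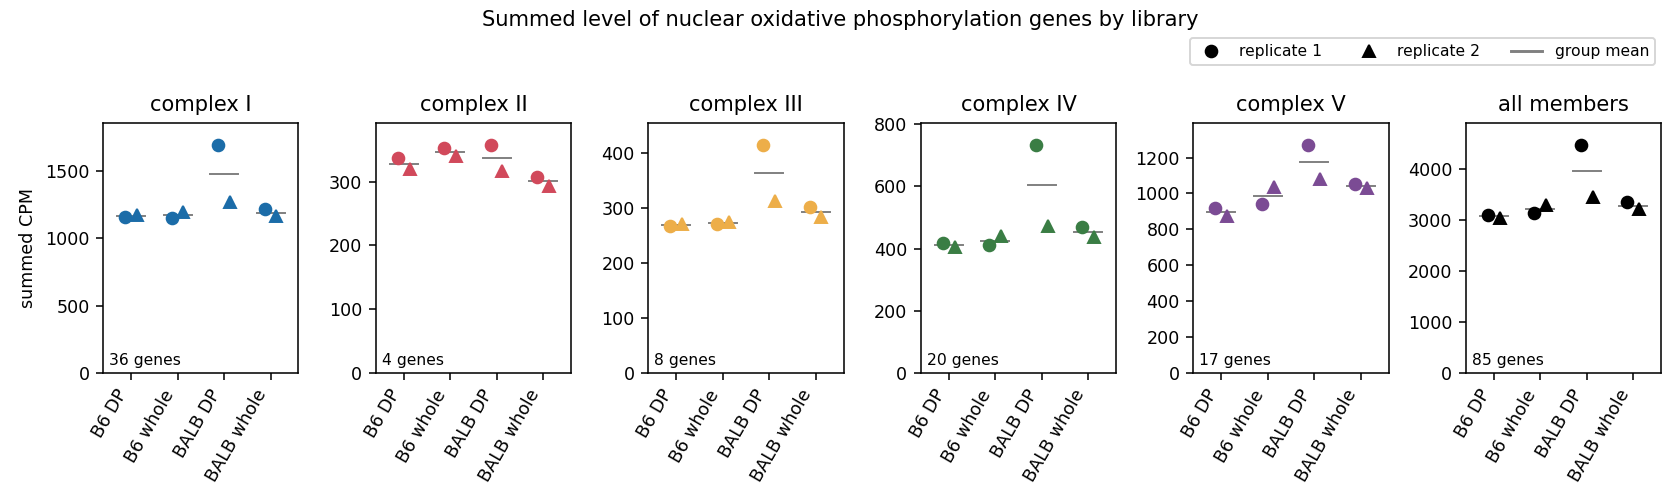
Summed CPM of all members of each complex in each of the 8 libraries, on axes that start at 0. Circles are replicate 1, triangles replicate 2 and grey bars group means; BALB DP replicate 1 is the highest library in every panel, at 4460 CPM over all members, and the other 7 libraries lie between 3041 and 3450.

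The comparison of strains within sorted DP thymocytes gave the most called members. In BALB, 17 of the 74 tested members rose over B6 and none fell, where 6.85% of all tested genes rose. They comprised 5 members of complex V, 6 of complex IV, 2 of complex III, 4 of complex I and none of complex II. The median log2 fold change over the 74 members was 0.36, beside 0.00 over all tested genes, and 69 of the 74 were above 0. In 44 of the 74 members (59.5%) both BALB DP libraries were above both B6 DP libraries, which held for 26.1% of all tested genes, and in none were both below. All p-values of this comparison are from edgeR's quasi-likelihood F test (Benjamini-Hochberg), and adjusted p of the 17 ran from 0.00268 to 0.0469.

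Complex V held the member with the lowest adjusted p. Atp5e, the small epsilon subunit in the central stalk of the enzyme (chromosome 2, 174461072 to 174464105, GRCm38), had 7.85 and 11.9 CPM in B6 DP and 29.96 and 22.9 CPM in BALB DP. Its 2 B6 DP libraries were the lowest of all 8, the B6 whole libraries standing at 19.2 and 20.8 CPM and the BALB whole libraries at 23.9 and 19.5 CPM. It rose by 1.42 ± 0.24 on the log2 scale (SE; n = 2 libraries a group; edgeR's quasi-likelihood F test (Benjamini-Hochberg), adjusted p = 0.00268). Atp5h, subunit d of the peripheral stalk, had 51.5 and 50.7 CPM in B6 DP and 89.5 and 68.7 CPM in BALB DP, and rose by 0.65 ± 0.15. Atp5g3 had 38.9 and 42.5 CPM in B6 DP and 60.8 and 55.5 CPM in BALB DP, and rose by 0.52 ± 0.13. In both, the 2 BALB libraries lay clear of the 2 B6 libraries. Atp5j, coupling factor 6 of the peripheral stalk, had 99.2 and 83.6 CPM in B6 DP and 242 and 119 CPM in BALB DP (log2 fold change 1.01 ± 0.24). Atp5k, subunit e at the base of the membrane part, had 14.4 and 30.4 CPM in B6 DP and 61.8 and 35.3 CPM in BALB DP (1.12 ± 0.30). For Atp5h, Atp5j and Atp5k the gap between the BALB libraries was wider than the gap between the strains' nearest libraries. Atp5g2 had 0.628 and 1.60 CPM in B6 DP and 5.78 and 1.16 CPM in BALB DP, groups that overlap, with a log2 fold change of 1.76 ± 0.67 and an adjusted p of 0.104 by edgeR's quasi-likelihood F test, and Atp5g1 had 2.197 and 2.51 CPM against 3.68 and 2.72 CPM (0.48 ± 0.42; adjusted p = 0.489).

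In complex IV, Cox8a, a small membrane subunit, had 43.9 and 37.02 CPM in B6 DP and 82.5 and 55.9 CPM in BALB DP and rose by 0.81 ± 0.19. Ndufa4 had 19.5 and 16.7 CPM in B6 DP and 36.1 and 24.8 CPM in BALB DP and rose by 0.80 ± 0.21. Cox6a1 had 38.3 and 34.5 CPM against 58.7 and 46.2 CPM (0.55 ± 0.16), and Cox7a2 had 12.9 and 16.5 CPM against 31.7 and 19.0 CPM (0.83 ± 0.25). In all 4, replicate 2 lay above the higher B6 library and replicate 1 above replicate 2. The widest splits between the BALB libraries were in Cox5b and Cox6c. Cox5b, a zinc-binding subunit on the matrix side, had 36.1 and 34.05 CPM in B6 DP and 105 and 40.8 CPM in BALB DP (1.12 ± 0.31). Cox6c had 38.6 and 34.96 CPM in B6 DP and 102 and 43.5 CPM in BALB DP (1.03 ± 0.29). Cox7c, the member with the most negative value, had 4.71 and 2.29 CPM in B6 DP and 1.401 and 3.88 CPM in BALB DP, with a log2 fold change of -0.56 ± 0.67 and no call.

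Complexes I and III added 6 called members, all of them accessory subunits that surround the catalytic core. Ndufb4, in the membrane arm of complex I, had the largest fold of the 17, with 3.14 and 10.1 CPM in B6 DP and 34.7 and 16.7 CPM in BALB DP (log2 fold change 1.95 ± 0.43). Its lower B6 value came from 10 counts, and 18.3% of its 50-base stretches occur in other genes. Ndufa5, in the peripheral arm, was split less, with 23.2 and 21.3 CPM in B6 DP and 43.97 and 34.6 CPM in BALB DP (0.85 ± 0.18). Ndufb7 had 22.3 and 29.7 CPM against 59.9 and 34.6 CPM (0.89 ± 0.24), and Ndufc1 had 9.10 and 10.5 CPM against 28.0 and 15.1 CPM (1.20 ± 0.33). Uqcr11, a small subunit of complex III, had 12.9 and 10.5 CPM in B6 DP and 37.5 and 16.3 CPM in BALB DP (1.30 ± 0.33), and Uqcrh had 78.8 and 95.7 CPM against 147 and 106 CPM (0.54 ± 0.16). In each of these 6 members the BALB libraries lay above both B6 libraries, replicate 1 above replicate 2. Sdha, Sdhb, Sdhc and Sdhd of complex II were not called.

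**Figure D3:**
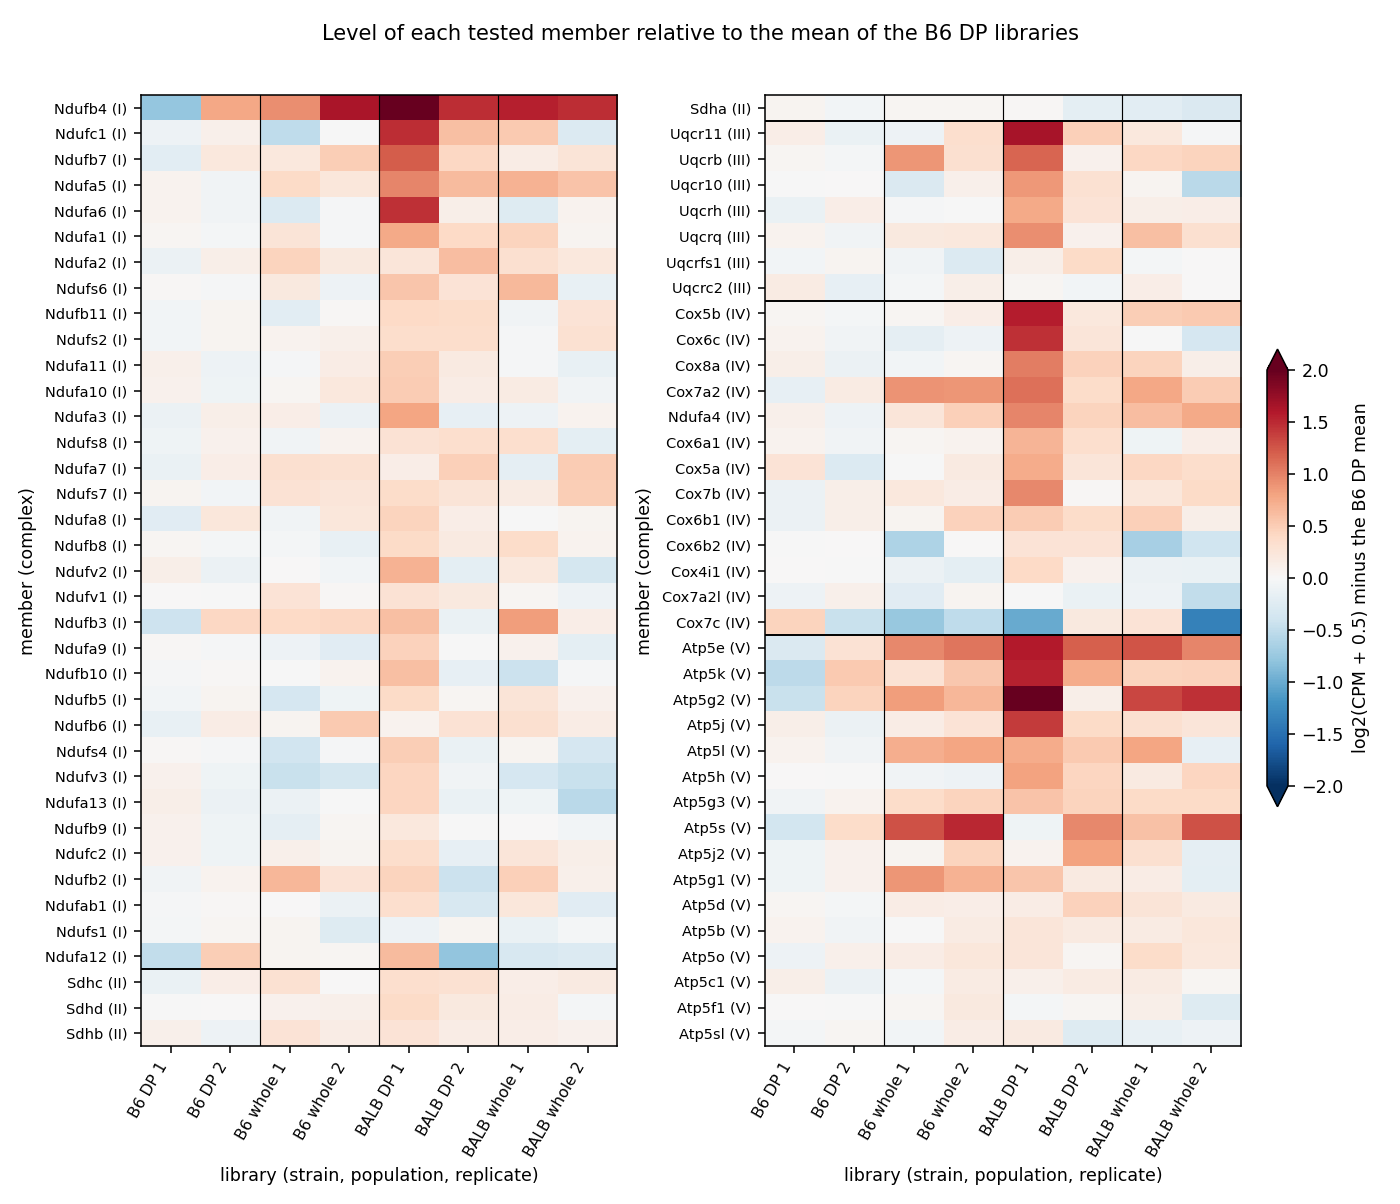
Level of each of the 74 tested members in each library, as log2(CPM + 0.5) minus the mean of the 2 B6 DP libraries, by complex and, within a complex, in order of the mean of the BALB DP libraries. Red is higher and blue lower, the scale ending at 2 on either side; the BALB DP replicate 1 column is the reddest of the 8 and is the highest library in 51 of the 74 members.

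A single library carried much of this. BALB DP replicate 1 was the highest of the 8 libraries in 51 of the 74 tested members (68.9%) and in all 17 called ones, whereas it was the highest in 22.8% of all tested genes, and it was the lowest in none of the 74. Relative to the B6 DP mean, on the log2(CPM + 0.5) scale, the 17 called members had a median of 1.20 in replicate 1 and 0.44 in replicate 2. The range was 0.57 to 2.51 in replicate 1 and 0.21 to 1.47 in replicate 2. Without replicate 1, Atp5e was the one member called (log2 fold change 1.18, adjusted p = 0.0166 by edgeR's quasi-likelihood F test), 4.16% of all tested genes still rose, and the median over the 74 members was 0.20 with 56 above 0. With the same test, Atp5h then had 0.43 (adjusted p = 0.108), Atp5j 0.39 (0.0870), Ndufa5 0.64 (0.0649), Cox8a 0.47 (0.143), Cox5b 0.22 (0.535) and Cox6c 0.25 (0.536). With each other library left out, the count of called members moved as well, and so did the share of all tested genes that rose. Both were larger without BALB DP replicate 2 and smaller without any B6 library or BALB whole library. Each of these fits leaves 1 library in a group, which is assumed to vary like the others. Replicate 2 alone was above both B6 DP libraries in 50 of the 74 members (67.6%), beside 39.0% of all tested genes, and replicate 1 was above both in 64 (86.5%), beside 41.7%. By complex, replicate 2 was above both B6 DP libraries in 19 of 34 members of complex I, 3 of 4 of II, 6 of 7 of III, 9 of 13 of IV and 13 of 16 of V. Atp5e was called in all 14 alternative fits of this comparison, with log2 fold changes from 1.16 to 1.79 and adjusted p from 2.2e-07 to 0.0309.

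**Figure D4:**
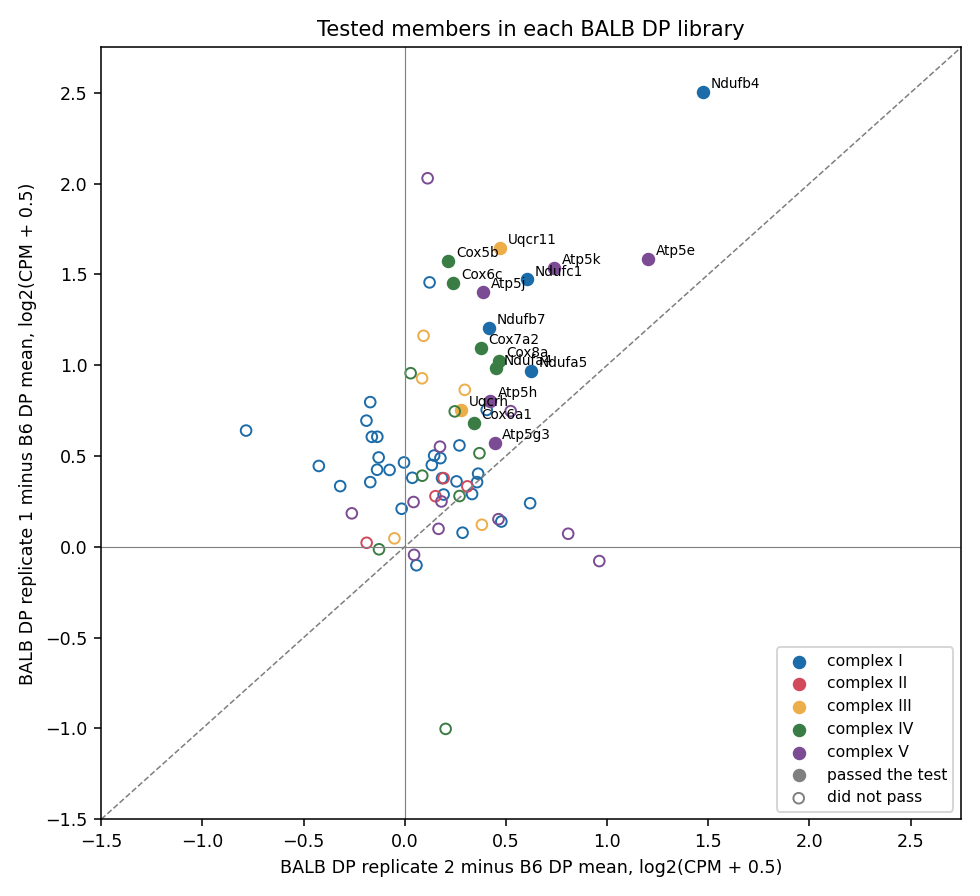
Each tested member in BALB DP replicate 2 (horizontal) and replicate 1 (vertical), as the difference in log2(CPM + 0.5) from the mean of the 2 B6 DP libraries. Filled points are the 17 members that passed the test and open points those that did not, colours are complexes and the dashed line marks equal values; every filled point lies above the line, with medians of 1.20 in replicate 1 and 0.44 in replicate 2.

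Over all tested genes, the split between the BALB DP libraries fell with transcript length, while over the members it did not fall steadily. Members are short, with a median transcript of 743.5 nucleotides among those tested against 2680 over all tested genes with a length, and all 17 called members, as well as 49 of the 74 tested, are under 1000 nucleotides. Over all tested genes under 1000 nucleotides the median log2 ratio of replicate 1 to replicate 2 in BALB DP was 0.21, and over the 49 members of that length it was 0.38. From 1000 to under 2000 nucleotides the medians were 0.07 over all genes and 0.11 over 19 members. From 2000 to under 4000 nucleotides they were -0.02 over all genes and 0.37 over 6 members. In B6 DP the 49 short members had a median ratio of 0.00 and all short genes one of -0.08. The 5 cycling-cell markers also differed: their summed CPM was 8257 and 6777 in BALB DP against 4419 to 5181 in the other 6 libraries, and 4 of the 5 rose in BALB DP (Mki67, Top2a, Cdk1 and Mcm5), which were also called without BALB DP replicate 1; without B6 DP replicate 2 there was 1 of the 5. The part of length, of Rn45s and of cycling cells in the members' differences was not tested. As RNA was pooled over cells, a smaller share of cells with a transcript and less of it per cell cannot be told apart.

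**Figure D5:**
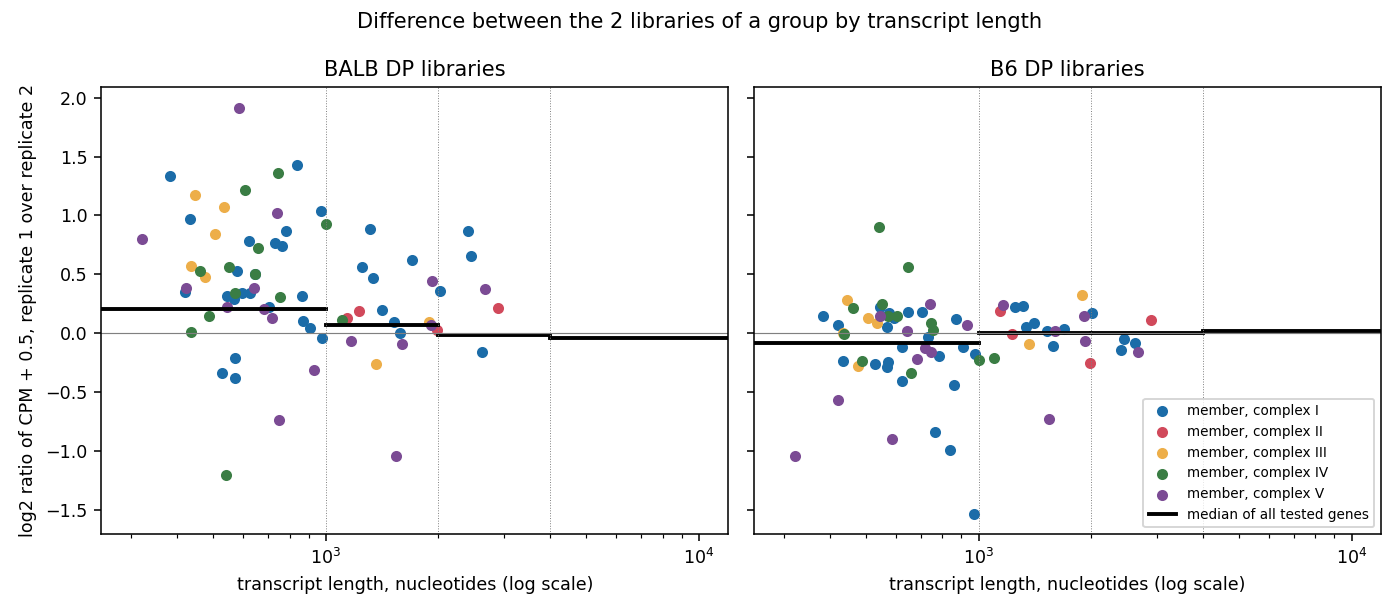
Log2 ratio of CPM + 0.5 in replicate 1 over replicate 2 for each tested member against its transcript length on a log axis, in BALB DP (left) and B6 DP (right). Points are members coloured by complex, black bars are medians of all tested genes in 4 length classes bounded at the dotted lines; in BALB DP most points lie above 0 and the medians of all genes go from 0.21 for the shortest class to -0.04 for the longest, while in B6 DP the shortest class is at -0.08.

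In whole thymocytes the strains differed in no called member, where 4.59% of all tested genes were called in either direction. The median log2 fold change of BALB over B6 was 0.03 over the 74 members and 0.02 over all tested genes, with 41 members above 0 and 33 below. DESeq2 also called 0 members. Atp5h had 48.5 and 47.6 CPM in B6 and 57.7 and 68.9 CPM in BALB whole thymocytes, with no overlap between the strains, as in DP cells. Its log2 fold change was 0.40 ± 0.16 (adjusted p = 0.240 by edgeR's quasi-likelihood F test). Sdha, the catalytic subunit of succinate dehydrogenase, differed by -0.29 ± 0.11 (adjusted p = 0.209 by edgeR's quasi-likelihood F test), its BALB whole values of 196 and 185 CPM lying under 232 and 231 CPM in B6. When only the 4 whole libraries were fitted it fell by 0.30 on the log2 scale with an adjusted p of 0.0127. Without BALB DP replicate 1 it fell by 0.30 with an adjusted p of 0.0210.

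The comparison of whole with DP thymocytes asks how members differ between the sorted stage and the full mixture. The sort sets this contrast: summed CPM of 7 mature thymocyte markers was 82.9 to 98.5 in DP and 352 to 531 in whole libraries, with S1pr1 at 0 in 3 of the 4 DP libraries, and that of 7 myeloid and dendritic cell markers was 18.6 to 25.4 in DP and 172 to 223 in whole libraries. That of 6 thymic epithelial markers was 0.942 to 2.33 in DP, 18.2 and 29.5 in B6 whole and 70.3 and 76.6 in BALB whole libraries; the part of these cells in the members' values was not tested. In B6, 2 members rose in whole thymocytes and none fell, where 6.89% of all tested genes rose, so the share of members (2.7%) was under the background. Atp5e rose from 9.86 ± 2.85 CPM (SD, n = 2) in DP to 20.02 ± 1.099 CPM in the whole population, by 0.99 ± 0.25 on the log2 scale (SE; adjusted p = 0.0252 by edgeR's quasi-likelihood F test). Cox7a2 rose from 14.7 ± 2.53 to 27.4 ± 0.116 CPM (0.89 ± 0.25; adjusted p = 0.0412). The median over the 74 members was 0.08, beside 0.00 over all genes. Without B6 DP replicate 1, or without either B6 whole library, neither was called. Without either BALB DP library both stayed called and further members were, as was a larger share of all tested genes. With B6 DP replicate 2 or either BALB whole library left out, Atp5e was called and Cox7a2 was not.

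In BALB the sign was the other way, with 7 members lower in whole than in DP thymocytes and none higher. They made up 9.46% of the tested members, near the 6.59% of all tested genes that fell. Uqcr11 fell by 1.19 ± 0.32 on the log2 scale, from 37.5 and 16.3 CPM in DP to 13.5 and 11.5 CPM in whole thymocytes. Cox6c fell by 1.19 ± 0.30, from 102 and 43.5 CPM to 36.7 and 29.0 CPM. In both members, BALB DP replicate 1 stood far above every other library. Ndufa6 fell by 1.08 ± 0.31, from 121 and 47.8 CPM to 36.7 and 46.2 CPM, and here replicate 2 lay just above the whole libraries. Ndufc1 fell by 1.02 ± 0.32, from 28.0 and 15.1 CPM to 14.2 and 7.99 CPM, and Cox6a1 fell by 0.52 ± 0.16, from 58.7 and 46.2 CPM to 34.3 and 39.7 CPM. Uqcr10, a small subunit of complex III, fell by 0.88 ± 0.26, from 27.9 and 18.6 CPM to 15.7 and 10.2 CPM, and Ndufv3, in the NADH-oxidising part of complex I, fell by 0.61 ± 0.16, from 105 and 74.1 CPM to 61.6 and 57.4 CPM. Adjusted p of the 7 ran from 0.0168 to 0.0488 in edgeR's quasi-likelihood F test (Benjamini-Hochberg). The median over the 74 members was -0.25, beside 0.00 over all tested genes, and 65 were below 0. Without BALB DP replicate 1, no member was called, where 5.34% of all genes still fell, and the median was -0.09. With each other library left out, the count of called members moved too, and so did the share of all tested genes that fell. Both were larger without BALB DP replicate 2 and smaller without any B6 library or BALB whole library.

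The 2 strains' differences between populations were also compared directly. This interaction, the strain difference in whole minus that in DP thymocytes, had no called member, where 0.123% of all tested genes were called in either direction. DESeq2 also called 0 members. In edgeR's quasi-likelihood F test, Atp5e had the lowest adjusted p, with -1.30 ± 0.33 (adjusted p = 0.195), and Cox7a2 had -1.07 ± 0.34 (adjusted p = 0.284). The median over the members was -0.38 and over all genes 0.01. Without BALB DP replicate 1 the median was -0.18 and no member was called. Without BALB DP replicate 2 members were called, and so was a larger share of all tested genes.

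Fitted over both populations, BALB exceeded B6 in 3 members, Atp5h, Ndufa5 and Cox8a, and none was lower. This share of the tested members (4.05%) was under the 4.84% of all tested genes that rose. Atp5h rose by 0.52 ± 0.11 (adjusted p = 0.0117 by edgeR's quasi-likelihood F test), with all 4 BALB libraries at 57.7 to 89.5 CPM and all 4 B6 libraries at 47.6 to 51.5 CPM. Ndufa5 rose by 0.58 ± 0.14 (adjusted p = 0.0227), with the BALB libraries at 33.2 to 43.97 CPM and the B6 libraries at 21.3 to 29.2 CPM. Both kept the call without BALB DP replicate 1, with log2 fold changes of 0.40 (adjusted p = 0.0125) and 0.43 (adjusted p = 0.0386). Atp5h was called in 13 of 14 alternative fits of this comparison and lost the call without B6 DP replicate 2 (adjusted p = 0.0607). Ndufa5 lost it in 4 of 14, which were the fits without B6 DP replicate 1 (0.0707), without B6 DP replicate 2 (0.112), without B6 whole replicate 2 (0.0511) and without BALB DP replicate 1 and BALB whole replicate 1 together (0.0823). The count of called members and the share of all tested genes that rose both moved with the B6 library left out. In neither gene did the strains' libraries overlap. Atp5h shares 19.9% of its 50-base stretches with other genes and Ndufa5 none. Cox8a rose by 0.56 ± 0.15 (adjusted p = 0.0389), with the lowest BALB library and the highest B6 library both at 43.9 CPM, and lost the call in 6 of 14 alternative fits, the one without BALB DP replicate 1 among them (0.36, adjusted p = 0.0605). Atp5e did not enter this group.

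Fitted over both strains, Ndufv3 was the one member called between populations, lower in whole thymocytes. It made up 1.35% of the tested members, under the 8.01% of all tested genes that fell. It had 83.2 and 73.4 CPM in B6 DP, 105 and 74.1 in BALB DP, 57.0 and 61.2 in B6 whole and 61.6 and 57.4 in BALB whole thymocytes, so that all 4 DP libraries were above all 4 whole ones. It fell by 0.51 ± 0.12 on the log2 scale (adjusted p = 0.00971 by edgeR's quasi-likelihood F test) and was called in all 14 alternative fits of this comparison, with log2 fold changes from -0.58 to -0.36. The median over all 74 members was -0.08 and turned to 0.04 without BALB DP replicate 1. The X-linked members Ndufa1, Ndufb11 and Cox7b, looked at because the libraries differ in Xist and Ddx3y, were called in no comparison. In BALB whole replicates 1 and 2, Ndufa1 had 15.2 and 11.5 CPM, Ndufb11 40.3 and 50.9 CPM and Cox7b 45.2 and 50.4 CPM, with no common direction.

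Genes outside the symbol rule, among them carriers, other chain proteins, assembly factors and regulators, were read from 4 lists. Of 21 tested electron carriers and other chain proteins, 4 rose in BALB DP over B6 DP and none fell, with a list median of 0.39, beside 6.85% of all tested genes that rose. Cycs, cytochrome c itself, had 13.8 and 15.5 CPM in B6 DP and 32.8 and 22.5 CPM in BALB DP (0.94 ± 0.22), and Atpif1, the inhibitor of complex V, had 103 and 108 CPM against 348 and 145 CPM (1.25 ± 0.28). Without BALB DP replicate 1, Atpif1 was the one of the 4 still called, with a log2 fold change of 0.46 (adjusted p = 0.0146 by edgeR's quasi-likelihood F test), while Cycs had 0.61 (adjusted p = 0.157), and with either B6 DP library left out none was called. Of 35 tested assembly factors 2 rose, a share under that of all genes, with a median of 0.08. Ndufaf4, an assembly factor of complex I, had 4.39 and 6.63 CPM in B6 DP and 15.6 and 8.93 CPM in BALB DP (1.20 ± 0.31). Without BALB DP replicate 1 no assembly factor was called, Ndufaf4 having 0.65 (adjusted p = 0.352), and none was called with either B6 DP library left out. Of 18 tested genes for expression of mitochondrial DNA 1 rose (Tsfm), likewise a share under the background, with a median of 0.19 and no call without BALB DP replicate 1 (Tsfm 0.66, adjusted p = 0.305), and of 13 tested regulators none changed, with a median of -0.01. Between populations, 2 of the 13 regulators rose and 1 fell in B6 whole thymocytes, where 6.89% of all tested genes rose and 3.27% fell, and 2 rose and 2 fell in BALB, where 10.6% rose and 6.59% fell. The falls were called in some fits only, from 0 to 5 of them in B6 and from 0 to 6 in BALB with 1 library left out, while 2 or 3 rises were called in each. Myc rose in whole thymocytes by 1.83 ± 0.18 in B6 and 1.82 ± 0.18 in BALB, and the coactivator Pprc1 by 1.18 ± 0.15 and 0.94 ± 0.15. Over both strains, where 8.01% of all tested genes fell, 5 of the 13 fell, among which the nuclear respiratory factor Nrf1 fell by 0.33 ± 0.07 in whole thymocytes, Gabpa by 0.37 ± 0.09 and Yy1 by 0.36 ± 0.09. In the fit of all 8 libraries, these rises and falls passed edgeR's quasi-likelihood F test (Benjamini-Hochberg).

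NRF1, GABPA and YY1 are transcription factors known to bind promoters of respiratory chain genes, and their core letters were searched in the members' promoters, 250 bases before to 50 after the start, from RefSeq (GRCm38.p6). Windows were found for 70 of the 85 members and for 27025 genes in all. The NRF1 letters GCGCATGCG, on either strand, were in 8 member promoters (11.4%) and in 1.95% of all genes. The GABPA letters CCGGAAGT were in 5 (7.14%, against 4.31%), and the YY1 letters AAGATGGCG in 8 (11.4%, against 1.64%). At least 1 of the 3 was in 20 member promoters (28.6%) and in 7.48% of all genes, which describes letters, not binding. Of the 16 called members of the DP comparison with a promoter, 8 held at least 1 motif, and of the 48 tested members without a call 10 did. NRF1 letters were in 3 of the 16 and 4 of the 48, GABPA letters in 4 and 0, and YY1 letters in 2 and 6. The called members with GABPA letters were Uqcr11, Uqcrh, Cox8a and Atp5h, and the untested Ndufs3 held them too. Without BALB DP replicate 1, the log2 fold changes of these 4 called members were 0.49, 0.26, 0.47 and 0.43. A link between motif and call was not tested.

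Promoters of 6 members are shown, the 3 with the smallest p between strains in DP thymocytes and the 3 motif-holding members with the highest CPM, with the motif in capitals. Atp5e (chr2:174464052-174464351, minus strand), Ndufa5 (chr6:24527477-24527776, minus strand) and Ndufb4 (chr16:37654319-37654618, minus strand) hold none of the 3. Atp5j (chr16:84834927-84835226, minus strand) and Ndufs4 (chr13:114388045-114388344, minus strand) hold YY1 letters, and Uqcrh (chr4:116075021-116075320, minus strand) holds GABPA letters on the opposite strand.
Atp5e: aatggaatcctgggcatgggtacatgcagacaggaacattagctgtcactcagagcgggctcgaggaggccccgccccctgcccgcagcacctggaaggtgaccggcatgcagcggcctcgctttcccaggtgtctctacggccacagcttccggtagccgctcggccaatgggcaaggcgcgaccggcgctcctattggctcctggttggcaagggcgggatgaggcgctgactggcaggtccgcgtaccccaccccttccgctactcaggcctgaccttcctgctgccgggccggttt
Ndufa5: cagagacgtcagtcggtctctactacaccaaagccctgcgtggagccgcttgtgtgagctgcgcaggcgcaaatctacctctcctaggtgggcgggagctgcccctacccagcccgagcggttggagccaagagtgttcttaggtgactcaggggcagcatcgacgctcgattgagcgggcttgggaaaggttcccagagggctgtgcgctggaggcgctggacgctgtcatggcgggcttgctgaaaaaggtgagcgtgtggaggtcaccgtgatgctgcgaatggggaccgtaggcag
Ndufb4: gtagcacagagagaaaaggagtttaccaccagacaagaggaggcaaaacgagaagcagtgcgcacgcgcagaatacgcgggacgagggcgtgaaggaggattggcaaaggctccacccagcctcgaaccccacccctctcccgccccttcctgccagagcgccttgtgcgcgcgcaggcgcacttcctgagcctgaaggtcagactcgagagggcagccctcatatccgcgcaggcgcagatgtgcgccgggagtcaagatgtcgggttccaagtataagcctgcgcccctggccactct
Atp5j: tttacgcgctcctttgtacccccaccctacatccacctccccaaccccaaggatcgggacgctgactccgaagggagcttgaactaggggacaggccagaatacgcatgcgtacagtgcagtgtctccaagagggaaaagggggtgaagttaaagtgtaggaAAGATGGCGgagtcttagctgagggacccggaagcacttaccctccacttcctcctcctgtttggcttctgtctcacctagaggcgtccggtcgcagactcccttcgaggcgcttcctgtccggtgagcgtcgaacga
Ndufs4: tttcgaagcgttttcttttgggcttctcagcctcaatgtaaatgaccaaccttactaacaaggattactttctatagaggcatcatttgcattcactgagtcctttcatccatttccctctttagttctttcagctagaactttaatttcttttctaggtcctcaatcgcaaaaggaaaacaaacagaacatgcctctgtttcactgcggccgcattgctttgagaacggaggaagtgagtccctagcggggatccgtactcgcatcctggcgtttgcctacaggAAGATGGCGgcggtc
Uqcrh: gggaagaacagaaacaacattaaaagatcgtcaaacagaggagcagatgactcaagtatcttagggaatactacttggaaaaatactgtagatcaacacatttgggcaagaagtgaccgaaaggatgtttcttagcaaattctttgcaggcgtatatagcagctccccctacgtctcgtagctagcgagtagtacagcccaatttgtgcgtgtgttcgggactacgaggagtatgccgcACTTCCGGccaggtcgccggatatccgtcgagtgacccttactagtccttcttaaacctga
Atp5j and Uqcrh were called in the DP comparison and Ndufs4, an accessory subunit of complex I, was not, with 86.0 and 83.9 CPM in B6 DP and 120 and 77.6 CPM in BALB DP, groups that overlap.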

How the data were processed

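The deposited files hold the authors' raw counts, as whole numbers for each gene symbol, in a file per library. Alignment with HISAT2 2.2.0 to mm10 (GRCm38), counting with HTSeq and testing with DESeq2 1.42.1 are named in the submitters' processing notes, per the labels. For HTSeq's version, annotation and strand setting the sources used here give nothing. The kit named in the labels' protocols, TruSeq RNA Sample Prep v2, keeps no strand. Files cover 11214574 to 19602652 reads, with 22.6% to 30.8% counted in genes and 43.3% to 48.9% in no feature, and these remainder lines were left out.

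The analysis used edgeR 4.0.16 under R 4.3.3. Genes passing filterByExpr were scaled by TMM (factors from 0.957 to 1.05), and all 8 libraries were fitted by quasi-likelihood with 1 coefficient per group, or with additive strain and population terms for the comparisons over both. The common biological coefficient of variation was 0.114. CPM uses the summed counts of the tested genes. Fold changes carry standard errors, and CPM means carry the SD of 2 libraries. Lengths are medians over the basic transcripts of GENCODE M21, in which 84 members matched by symbol, and shared 50-base stretches were counted over its transcripts. Promoters are RefSeq windows of GRCm38.p6.

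Values by library, or their range, are given for members called in any of 7 comparisons, for the highest and lowest tested member of each complex per kilobase, for isoform sets and for X-linked members. The members, lists, comparisons and naming rule were chosen with earlier results of these data known. Alternatives were DESeq2 1.42.0 size factors, the DESeq2 Wald test, no filter on low counts, a replicate block, fits restricted to the compared libraries, averaged simple contrasts, and leaving out each library. Leaving out BALB DP replicate 1 and BALB whole replicate 1 together, and the alternatives for the gene lists, were added after seeing the data. Figures come from matplotlib 3.10.9 under Python 3.11.15.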

Additional observations from a re-analysis of the deposited data

How the results depend on the processing

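Counts of called members moved with the processing, and the cause was not tested beyond what each fit leaves out. In the order DP strain, whole strain, population in B6, population in BALB, interaction, strain over both and population over both, leaving out each library in turn gave 1 to 36, 0 to 2, 0 to 5, 0 to 29, 0 to 21, 0 to 5 and 1 to 4 members. Medians over members then ran from 0.20 to 0.50, from -0.040 to 0.080, from 0.036 to 0.12, from -0.38 to -0.092, from -0.50 to -0.18, from 0.073 to 0.24 and from -0.12 to 0.045, so that the whole strain and the population over both changed sign. The DESeq2 Wald test gave 9, 0, 1, 3, 0, 5 and 2 called members. There 4.79% of all tested genes rose in the DP strain, 4.8% in the B6 population and 4.11% in the strain over both. In the BALB population 4.02% fell, and in the population over both 6.15%. Without a filter 16 were called in BALB between populations, 9 in the interaction, 9 between strains over both and 4 between populations over both. In the members' direction 6.33%, 1.47%, 4.78% and 5.74% of all genes with a count were called. With the 4 libraries compared alone the counts were 1, 1, 6 and 1 for the 4 simple comparisons. There 2.22% of all tested genes rose in the DP strain and 5.32% fell in the whole strain. In the B6 population 12.2% rose and 11.4% fell, and in the BALB population 2.11% fell. Averaging the simple contrasts gave 8 and 3 for the comparisons over both, where 6.59% of all tested genes rose with strain and 9.76% fell with population. Without BALB DP replicate 1 and BALB whole replicate 1 together, the medians were 0.19 in the DP strain, -0.13 in the BALB population and 0.042 in the strain comparison over both. Scaling by DESeq2 size factors gave 17 in the DP strain comparison, where 6.78% of all tested genes rose. No called member changed sign under these alternatives. A member with few counts, such as Atp5g2, had a standard error of 0.67.

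Same-numbered replicates did not deviate together over the tested genes, with correlations of -0.04 to 0.06 over the 6 pairs of groups. With 2 libraries a group, this cannot tell whether same-numbered libraries share an animal, litter or day. The replicate block gave 14, 0, 2, 4, 0, 3 and 1 called members. With it 6.13% of all tested genes rose in the DP strain and 5.61% fell in the BALB population.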
